A study of Homo sapiens with 6 samples.

Results

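The insulin-like growth factor (IGF) genes examined here were IGF2, its imprinted neighbour H19, the receptor gene IGF1R, the adaptor gene IRS2 and the binding-protein genes IGFBP2 to IGFBP7. They were taken by gene symbol, and the list was chosen with earlier results of these data known. They are 10 of the 21357 genes listed in the annotation of the array and were covered by 26 of its 54613 probe sets, groups of short probes against the same transcript. The samples were human adrenocortical carcinoma cells, the H295R/TR SF-1 derivative of H295R, which make extra SF-1 when doxycycline is given. SF-1 is a nuclear receptor encoded by NR5A1 and a regulator of steroid-making tissues. Total RNA from 3 cultures labelled as given doxycycline (Dox, 1 µg/mL) and 3 labelled as basal, all at 72 h, was hybridised to Affymetrix HG-U133 Plus 2.0 arrays, 1 array a sample. Cells of both labels carry the inducible SF-1 construct. No array of the line without the construct given doxycycline was analysed here, so the drug and the induced factor cannot be told apart. All samples come from 1 subclone, and cells of a culture were measured as bulk RNA, where fewer cells and less RNA per cell cannot be told apart.

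IGF2 is a secreted growth factor that signals through the receptor kinase IGF1R and the insulin receptor, which recruit adaptors such as IRS2 and so activate PI3-kinase and AKT. IGF-binding proteins hold the ligand in the medium and can limit or prolong its access to the receptor. In the normal genome IGF2 is expressed from the paternal and H19 from the maternal chromosome. Overexpression of IGF2 is among the most frequent alterations of adult adrenocortical carcinoma.

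The arrays are called Dox 1 to Dox 3 and basal 1 to basal 3 in the order of deposition. In 2 pairs, arrays of opposite labels were nearly the same. Dox 1 and basal 1 differed by an SD of 0.134 log2 units over all probe sets with 0 probe sets over 2-fold, and Dox 2 and basal 3 by 0.149, also with 0. The other pairs of arrays differed by 0.258 to 0.461, with 525 to 2264 probe sets over 2-fold. Among the IGF axis probe sets the largest gap was 0.49 between Dox 1 and basal 1 and 0.40 between Dox 2 and basal 3, against 3.05 between Dox 1 and Dox 3. NR5A1 (210333_at), the induced gene, had log2 signals of 5.55, 6.21 and 6.41 in Dox 1, 2 and 3 and of 5.84, 5.92 and 6.30 in basal 1, 2 and 3. The difference was 0.03 ± 0.24 (SE, exact permutation test p = 1, two-sided, with 0.1 the lowest p possible for groups of 3), so the level of the induced gene did not separate the labels. The signal of 210333_at was above the array median on 5 arrays and below it in Dox 1, so its low level limits this comparison. Whether this probe set reads the transcript of the construct is not given in the sources used here. The study reports SF-1 overexpression after doxycycline and shows it by an immunoblot of the protein. The signals of this probe set therefore do not tell whether SF-1 was induced in these cultures. Dox 3 and basal 2 had a narrower spread of signals than the other 4 arrays (SD 2.36 to 2.37 against 2.43 to 2.44). Each result is therefore given for all 6 arrays by label, and again without basal 3 and Dox 1, with membership of the narrower array set as a block, a term that compares Dox 3 with basal 2 and Dox 2 with basal 1. NR5A1 differed there by 0.43 ± 0.14 (adjusted p = 0.132, limma). Both choices, of arrays and of block, came from these data. Leaving out the partners instead (basal 1 and Dox 2) turned the NR5A1 difference to -0.13. Directions in the 4-array comparison therefore rest on the labels of the arrays kept, the libraries labelled Dox 2, Dox 3, basal 1 and basal 2.

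Of 9 adrenocortical marker genes measured, 6 were above the array median on all 6 arrays, among them STAR, CYP11A1 and CYP17A1, and MC2R, the ACTH receptor gene, on 1 array. Without basal 3 and Dox 1, 2 of the 9 (22.2%) were called lower in Dox and 0 higher, where 3.27% of all genes were lower. These were STAR and HSD3B2 (-0.54 ± 0.09 and -1.40 ± 0.18, adjusted p = 0.00247 and 2.12e-04, limma). NR5A1 and CYP11A1 were higher (0.43 and 0.30) and the remaining markers lower, none of them called. HSD3B2 was highest in basal 2 (7.89) and lowest in basal 3. By label STAR and HSD3B2 differed by -0.17 ± 0.24 and -0.48 ± 0.66. Whether the lower STAR and HSD3B2 have a part in the differences of the IGF axis genes was not tested. Markers of other cell types were above the median on all arrays for 2 of 4 adrenal medulla, 1 of 4 endothelial, 2 of 4 fibroblast and pericyte and 2 of 4 blood genes, and 0 of these 16 were called in either comparison. Of the endothelial markers, PECAM1 was above the median and VWF, CDH5 and KDR below it on every array. Of the fibroblast and pericyte markers, PDGFRB and COL1A1 were above it on every array, DCN on 4 arrays and LUM on none. Of the blood markers, HBB and CD3E were above it and PTPRC and CD14 below it on every array. A signal above the array median is therefore no proof that a cell type was present. The summed level of the endothelial list lay between 7.12 and 7.25 in the Dox arrays and between 7.09 and 7.21 in the basal arrays, on the log2 scale of the sum of linear signals, and that of the fibroblast list between 8.39 and 8.66 in the Dox arrays and between 8.38 and 8.71 in the basal arrays.

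Sequence upstream of the start sites was looked at for the motif CAAGGNCA, to which SF-1 binds, and for the GC box GGGCGG, each on both strands of the 250 bases before the start. The RefSeq (GRCh38.p14) promoters used here gave 10 such windows for 8 of the 10 genes. IGF2 and IGFBP7 had none, and IGFBP2 had more than 1. The SF-1 motif was in 0 of the 10, against 4.5% of 35116 promoters of the same length, and the GC box was in 7 of the 10, against 42.6%. A match describes the letters only. So few windows cannot tell 0 from a share of 4.5%. The study placed most of its SF-1-binding sites distal to genes at both SF-1 dosages, outside windows of this size. It reported a larger share of sites close to genes and to start sites when SF-1 was overexpressed. 3 promoters are shown, those of IGFBP3 and IRS2, genes with more than 1 probe set of which each was lower in the 4-array comparison, and that of IGFBP5, which holds neither motif. Capitals mark the GC box, written CCGCCC where it lies on the other strand.
IGFBP3 (chr7:45921273-45921522, minus strand): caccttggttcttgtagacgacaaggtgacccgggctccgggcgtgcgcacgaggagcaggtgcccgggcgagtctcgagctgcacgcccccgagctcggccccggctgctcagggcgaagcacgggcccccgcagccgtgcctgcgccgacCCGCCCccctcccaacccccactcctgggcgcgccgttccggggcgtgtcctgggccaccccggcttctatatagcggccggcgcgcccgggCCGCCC
IGFBP5 (chr2:216695550-216695799, minus strand): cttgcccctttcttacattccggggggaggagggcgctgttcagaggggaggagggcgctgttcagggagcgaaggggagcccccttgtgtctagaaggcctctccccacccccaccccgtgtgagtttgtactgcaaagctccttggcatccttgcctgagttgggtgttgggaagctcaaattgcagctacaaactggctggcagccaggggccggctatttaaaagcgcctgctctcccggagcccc
IRS2 (chr13:109786584-109786833, minus strand): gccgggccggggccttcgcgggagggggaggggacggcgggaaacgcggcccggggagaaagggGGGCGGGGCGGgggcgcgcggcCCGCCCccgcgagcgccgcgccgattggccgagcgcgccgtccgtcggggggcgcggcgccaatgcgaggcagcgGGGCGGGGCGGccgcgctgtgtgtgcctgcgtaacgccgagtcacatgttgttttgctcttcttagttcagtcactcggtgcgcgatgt
The IRS2 window held 5 GC boxes, some of them overlapping, the IGFBP3 window 2 and the IGFBP5 window 0. The G and C content of the 10 promoters ran from 56.4% to 81.2%, against a median of 58% over all promoters. Both probe sets of H19 also list MIR675, the microRNA gene inside H19, so the mature products of that gene are shown too, with bases 2 to 8, the seed, in capitals.
hsa-miR-675-5p (chr11:1996800-1996822, minus strand): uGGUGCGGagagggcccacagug
hsa-miR-675-3p (chr11:1996768-1996787, minus strand): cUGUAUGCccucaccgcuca
The 2 arms have different seeds, and neither was measured apart from H19 on these arrays.

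In the comparison of all 6 arrays by label, 0 of the 26 probe sets passed an adjusted p of 0.05 (limma, Benjamini-Hochberg over 54613 probe sets), where 0% of all probe sets passed. At an unadjusted p under 0.05 it was 0 of 26, against 373 of all probe sets. Only 1 of the 26 had labelled groups that did not overlap, the IGFBP5 set 211958_at, a share of 3.85% against 3.81% of all probe sets. Its signals were 5.61, 5.49 and 5.47 in the Dox arrays and 5.64, 5.81 and 5.79 in the basal arrays, close to the array median. In the comparison without basal 3 and Dox 1, 8 of the 26 probe sets were lower in Dox and 0 higher. That is 30.8%, where 2.09% of all probe sets were called lower, 2.07% higher and 4.15% in either direction. The genes were chosen with earlier results of these data known, so the contrast of these shares is not independent evidence. The 8 sets belong to IGFBP7, IGFBP3, IRS2, IGFBP2 and IGFBP5, and sets of the same gene read the same transcripts. By the brightest probe set of each gene, 4 of 10 genes were lower, where 3.27% of all genes were. That share is over the 19775 genes with a probe set listing 1 symbol. IGF2 and H19, whose sets list several, are outside it, and neither was called. These calls depend on the arrays kept and on the block: 0 of the 26 were called without the block, and 0 when basal 1 and Dox 2 were left out in place of basal 3 and Dox 1. The median difference of the 26 was -0.16, and that of all probe sets was -0.0033. IGFBP7 and IGFBP5 are among the genes that the study itself names for these arrays, so their direction is not independent evidence.

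**Figure D1:**
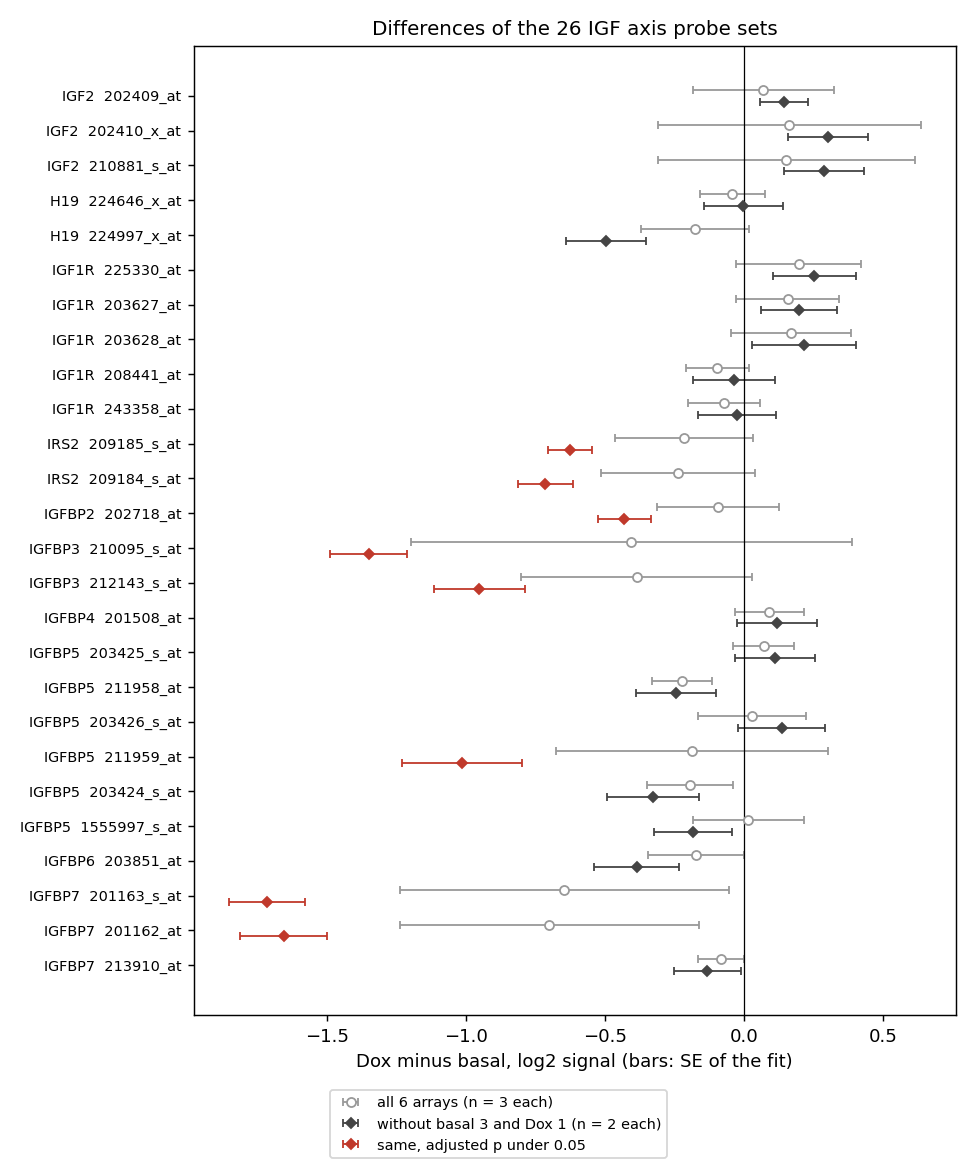
Dox minus basal difference in log2 signal of each of the 26 probe sets (rows, by gene), with the SE of the fit as bars. Open circles are all 6 arrays by label and diamonds the 4 arrays without basal 3 and Dox 1 (red, adjusted p under 0.05); the 8 red diamonds all lie below 0, from -0.43 to -1.71, and 0 of the open circles passed the test.

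IGF2 was bright on every array. The set 202409_at had log2 signals of 12.16, 12.32 and 13.06 in Dox 1, 2 and 3 and of 12.32, 12.77 and 12.24 in basal 1, 2 and 3. The highest signal of each label was in the narrower array set, Dox 3 and basal 2, and the labelled groups overlapped. The labelled difference was 0.07 ± 0.25 (SE, n = 3 each), with a 95% interval from -0.53 to 0.67 on the log2 scale. Without basal 3 and Dox 1 it was 0.14 ± 0.09 (n = 2 each, adjusted p = 0.530, interval -0.04 to 0.33). The sets 202410_x_at and 210881_s_at gave 0.30 ± 0.14 and 0.29 ± 0.14 there, and neither passed the test (adjusted p = 0.372 and 0.420). All 3 sets also list the read-through gene INS-IGF2, and a set named x_at can hold probes that match other transcripts.

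The larger variation of IGF2 ran between arrays of the same label. The set 202410_x_at had signals of 7.72, 7.64 and 9.24 in the Dox arrays and of 7.61, 8.65 and 7.83 in the basal arrays. Dox 3 exceeded Dox 2 by 1.60 and basal 2 exceeded basal 1 by 1.04. Only 0.172% of all probe sets were at least that much higher in both of these same-label pairs. The set 210881_s_at gave 1.56 and 1.00 in the same pairs (0.198% of all probe sets), and 202409_at gave 0.74 and 0.45 (2.36%). All 3 IGF2 sets were thus highest in Dox 3 and next in basal 2. Whether the difference between the array sets lies in the cells or in the arrays was not tested.

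**Figure D2:**
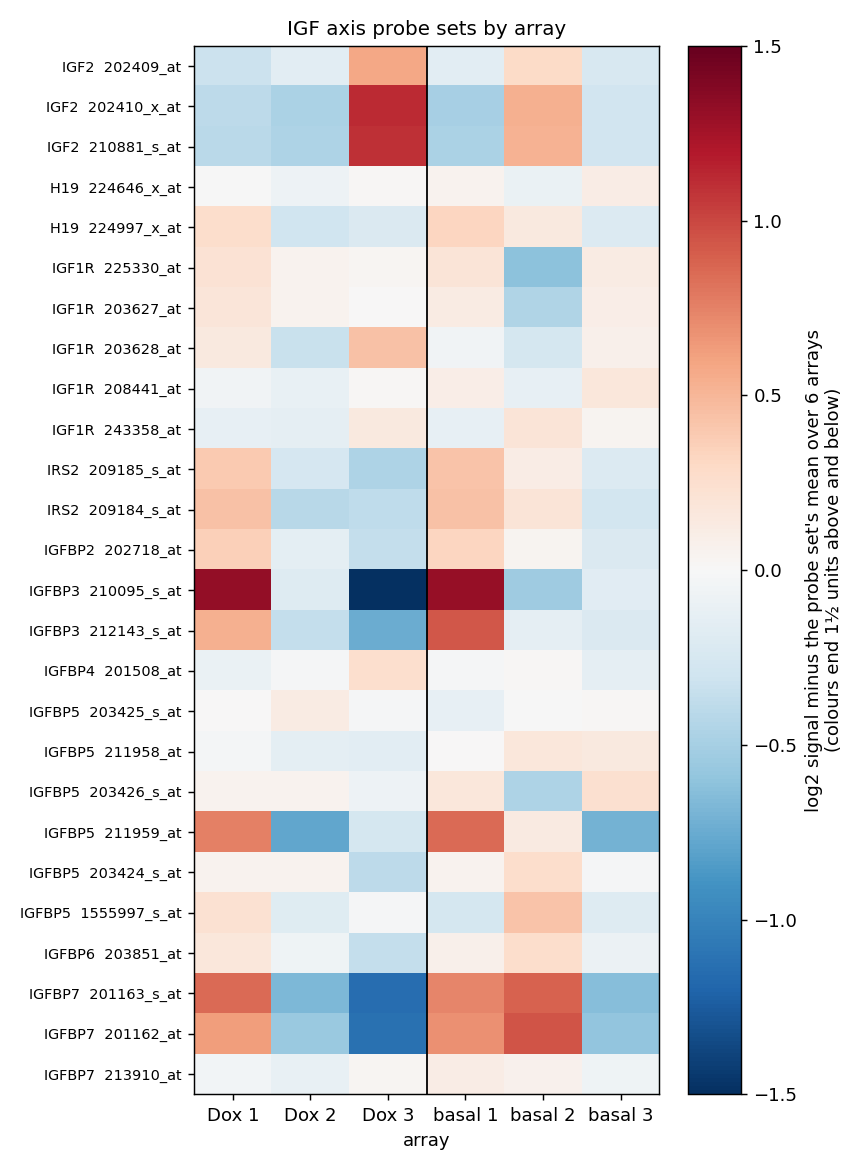
Signal of the 26 probe sets (rows) on the 6 arrays (columns, Dox left of basal) as the log2 difference from the probe set's own mean. The IGF2 rows are red in Dox 3 and basal 2, the IGFBP7 sets 201163_s_at and 201162_at are red in Dox 1, basal 1 and basal 2, and Dox 1 resembles basal 1 as Dox 2 resembles basal 3.

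H19, a non-coding RNA that shares its control region with IGF2, did not follow that order. Its brighter set 224646_x_at had 6.25, 6.19 and 6.28 in the Dox arrays and 6.31, 6.16 and 6.38 in the basal arrays, a range of 0.22 over all 6 arrays that 89.2% of probe sets exceeded. The difference was -0.04 ± 0.12 by label and -0.0015 ± 0.14 without basal 3 and Dox 1 (adjusted p = 0.998, interval -0.31 to 0.30). The set 224997_x_at was below the array median throughout and differed by -0.50 ± 0.14 in the 4-array comparison (adjusted p = 0.0778).

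IGF1R, the receptor kinase for IGF1 and IGF2, had signals of 10.04, 9.88 and 9.85 for 225330_at in the Dox arrays and of 10.01, 9.21 and 9.95 in the basal arrays. Basal 2 stood below the other 5 arrays, which lay between 9.85 and 10.04. The difference was 0.20 ± 0.22 by label and 0.25 ± 0.15 without basal 3 and Dox 1 (adjusted p = 0.526). The sets 203627_at and 203628_at differed by 0.20 ± 0.14 and 0.22 ± 0.19 in the 4-array comparison. The sets 208441_at and 243358_at, below the median on every array, differed by -0.04 ± 0.15 and -0.03 ± 0.14. None of the 5 sets passed the test in either comparison.

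IRS2, the adaptor that couples the IGF1 and insulin receptors to PI3-kinase, was lower in Dox by both of its sets once basal 3 and Dox 1 were left out. The set 209185_s_at had 12.86, 12.21 and 12.01 in Dox 1, 2 and 3 and 12.90, 12.58 and 12.26 in basal 1, 2 and 3. Dox 2 and Dox 3 were the lowest arrays, basal 3 was next to them, and Dox 1 lay beside basal 1. The difference was -0.63 ± 0.08 (1.54-fold lower, adjusted p = 2.19e-04, n = 2 each) without basal 3 and Dox 1, and -0.22 ± 0.25 with all 6 arrays. The set 209184_s_at had 11.59, 10.74 and 10.78 in the Dox arrays and 11.60, 11.35 and 10.88 in the basal arrays. It differed by -0.71 ± 0.10 (1.64-fold lower, adjusted p = 4.89e-04) in the 4-array comparison and by -0.24 ± 0.28 by label. Leaving out basal 1 and Dox 2 in place of the other pair gave 0.02 and 0.07 for these sets.

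**Figure D3:**
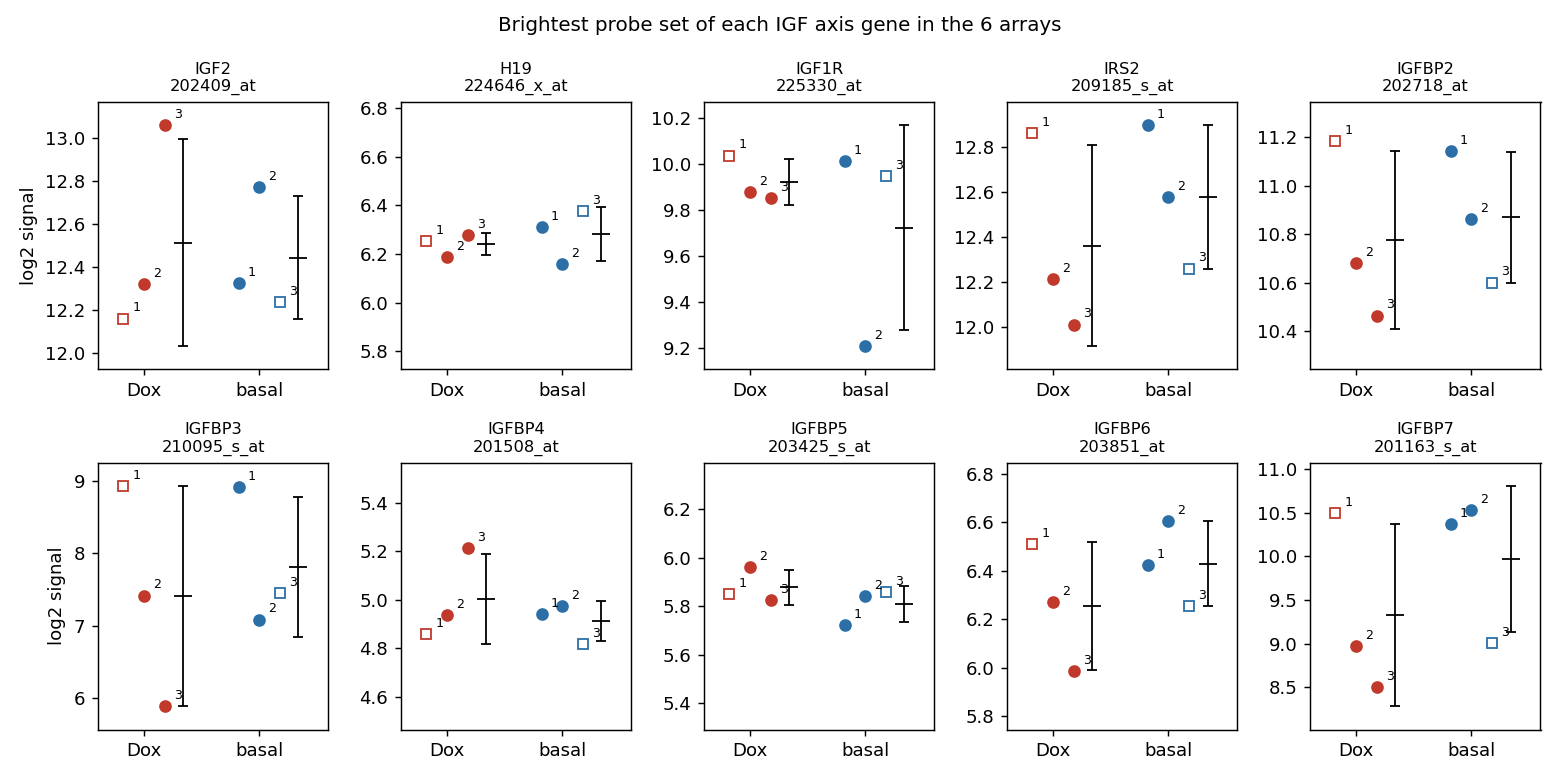
Log2 signal of the brightest probe set of each of the 10 genes, with Dox left of basal and the array number beside each point; open squares are Dox 1 and basal 3, and the bar is the mean ± SD of the 3 arrays of a label. Vertical axes differ between panels. In the IRS2, IGFBP2 and IGFBP7 panels Dox 1 lies beside basal 1, and basal 3 lies near Dox 2.

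IGFBP2, a binding protein with preference for IGF2, had 11.18, 10.68 and 10.46 in the Dox arrays and 11.14, 10.86 and 10.60 in the basal arrays (202718_at). Dox 1 and basal 1 were the highest arrays and Dox 3 the lowest, as for the IRS2 set 209185_s_at. The difference was -0.43 ± 0.10 (1.35-fold lower, adjusted p = 0.0177) without basal 3 and Dox 1, and -0.09 ± 0.22 by label. The call was lost without a mean-variance trend (adjusted p = 0.111), and without basal 1 and Dox 2 the difference was 0.09.

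IGFBP3, the main carrier of IGFs in blood, varied most among the IGF axis genes. The set 210095_s_at had 8.93, 7.41 and 5.88 in Dox 1, 2 and 3 and 8.91, 7.08 and 7.45 in basal 1, 2 and 3. Its range of 3.05 was exceeded by 0.104% of probe sets, and it ran from Dox 3 to Dox 1, arrays of the same label. The labelled difference was -0.41 ± 0.79. Without basal 3 and Dox 1 it was -1.35 ± 0.14 (2.55-fold lower, adjusted p = 2.87e-05), made up of -1.50 for Dox 2 against basal 1 and -1.20 for Dox 3 against basal 2. Dox 2 (7.41) lay above basal 2 (7.08), so the labels overlapped also among these 4 arrays. The set 212143_s_at had 7.29, 6.40 and 6.01 in the Dox arrays and 7.69, 6.62 and 6.54 in the basal arrays. It differed by -0.95 ± 0.16 (1.93-fold lower, adjusted p = 0.00290), with -1.29 and -0.61 in the same pairs, and by -0.39 ± 0.41 by label. Leaving out basal 1 and Dox 2 instead gave 0.14 and 0.07 for these sets.

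IGFBP7, a secreted protein of low affinity for IGFs that is also found in the matrix of blood vessels, showed the largest difference of the 26 probe sets in the 4-array comparison. The set 201163_s_at had 10.50, 8.97 and 8.50 in Dox 1, 2 and 3 and 10.37, 10.53 and 9.01 in basal 1, 2 and 3. Dox 1 stood with basal 1 and basal 2, and basal 3 stood with Dox 2 and Dox 3, so the labelled groups overlapped. The difference was -1.71 ± 0.14 (3.28-fold lower, adjusted p = 3.19e-06, n = 2 each) without basal 3 and Dox 1, and -0.65 ± 0.59 with all 6 arrays. The set 201162_at had 9.87, 8.69 and 8.12 in the Dox arrays and 9.93, 10.19 and 8.66 in the basal arrays. It differed by -1.65 ± 0.16 (3.15-fold lower, adjusted p = 1.61e-05) and by -0.70 ± 0.54 by label. Over these sets, Dox 2 minus basal 1 was -1.40 and -1.25, and Dox 3 minus basal 2 was -2.03 and -2.06. The SE of these fits draws on all probe sets and is smaller than the gap between the pairs. The set 213910_at, at 2.67 to 2.89 on all arrays, differed by -0.13 ± 0.12 (adjusted p = 0.746). Without basal 1 and Dox 2 in place of the other pair, the sets 201163_s_at and 201162_at differed by -0.27 and -0.43 and were not called. IGFBP7 is also made by endothelial cells and fibroblasts. Of the 8 markers of these cells, VWF, CDH5, KDR and LUM were below the array median on all arrays. PECAM1, PDGFRB and COL1A1 were above it on all 6 and DCN on 4. The cultures were of 1 subclone of a carcinoma line, and the study's methods name no other cells in them. The relation of these marker signals to the IGFBP7 difference was not tested.

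**Figure D4:**
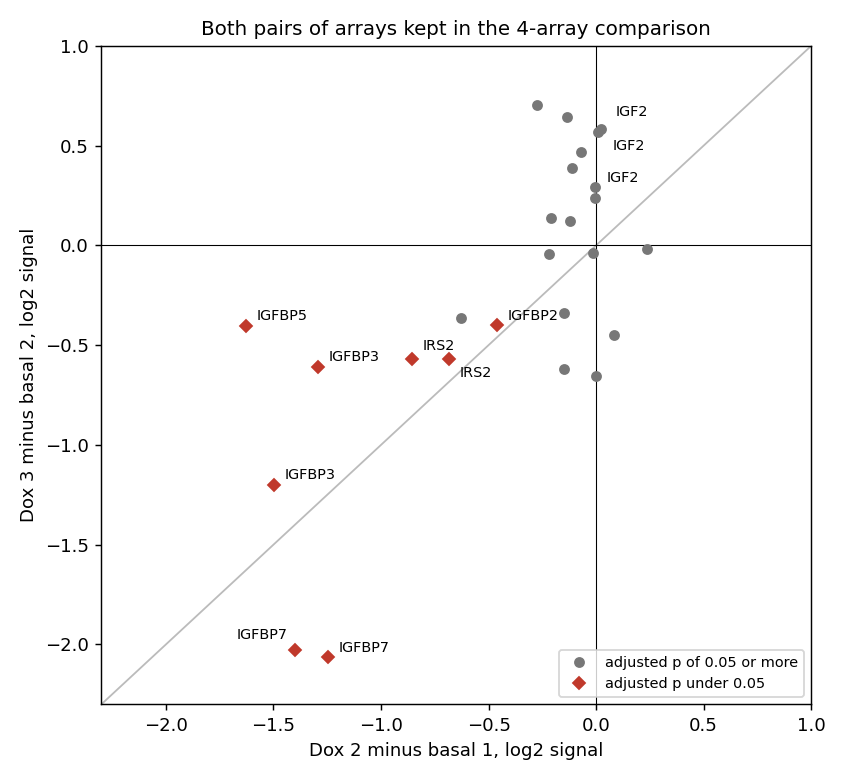
Difference of the 26 probe sets in Dox 3 minus basal 2 (vertical, log2) against Dox 2 minus basal 1 (horizontal, log2), with the line of equal differences in grey and red diamonds for an adjusted p under 0.05 in the 4-array comparison. The IGFBP7 sets lie at -1.40 and -1.25 on the horizontal axis and at -2.03 and -2.06 on the vertical axis, and the IGFBP5 set 211959_at at -1.63 and -0.40.

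IGFBP5, which binds IGFs and extracellular matrix and lies beside IGFBP2 on chromosome 2 with 0 protein-coding genes between them, gave different readings by probe set. The brightest, 203425_s_at, had 5.85, 5.96 and 5.82 in the Dox arrays and 5.72, 5.84 and 5.86 in the basal arrays, and differed by 0.07 ± 0.11 by label and 0.11 ± 0.14 without basal 3 and Dox 1 (adjusted p = 0.842). The set 211959_at had 5.81, 4.28 and 4.79 in the Dox arrays and 5.90, 5.19 and 4.34 in the basal arrays. It was above the array median only in Dox 1 and basal 1. It differed by -1.01 ± 0.22 (2.02-fold lower, adjusted p = 0.0134) without basal 3 and Dox 1 and by -0.19 ± 0.49 by label, and leaving out basal 1 and Dox 2 instead gave 0.53. The other 4 sets differed by between -0.33 and 0.14 in the 4-array comparison and none passed the test. So 1 of 6 sets was called, and it was not the brightest.

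IGFBP4 and IGFBP6 were not called in either comparison. IGFBP4, a binding protein cleaved by the protease PAPPA, was below the array median throughout, with 4.86, 4.94 and 5.21 in the Dox arrays and 4.94, 4.98 and 4.82 in the basal arrays (201508_at). It differed by 0.12 ± 0.14 without basal 3 and Dox 1 (adjusted p = 0.829, interval -0.19 to 0.43). IGFBP6, which prefers IGF2, had 6.51, 6.27 and 5.98 in the Dox arrays and 6.42, 6.61 and 6.26 in the basal arrays (203851_at). Its difference was -0.39 ± 0.15 (adjusted p = 0.238) without basal 3 and Dox 1 and -0.17 ± 0.17 by label, and Dox 3 was the lowest array.

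Among 82 further genes of the pathway and the imprinted locus, 76 had a probe set of their own. By label 0 of the 76 were called. Without basal 3 and Dox 1, 5 of the 76 (6.58%) were higher and 3 (3.95%) lower, where 3.16% of all genes were higher and 3.27% lower, and the median difference was 0.02. The ligands and receptors outside the chosen genes (IGF1, INS, INSR, INSRR and IGF2R) had 0 of 5 called, as did the IGF2 mRNA-binding proteins with 0 of 4. IGF2R, which clears IGF2 from the cell surface, had 10.79, 10.65 and 10.39 in the Dox arrays and 10.84, 10.11 and 10.81 in the basal arrays (0.05 ± 0.12 in the 4-array comparison).

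Of 23 adaptors and PI3K-AKT genes measured, 2 (8.7%) were higher and 2 (8.7%) lower without basal 3 and Dox 1. Of all genes 3.16% were higher and 3.27% lower, and counts this small are no result about a list. FOXO4, a transcription factor that AKT holds out of the nucleus, had 6.03, 7.87 and 8.05 in Dox 1, 2 and 3 and 6.06, 5.87 and 7.99 in basal 1, 2 and 3, a difference of 2.00 ± 0.14 (adjusted p = 1.07e-06). Its difference by label was 0.68 ± 0.71. Dox 1 was again with basal 1 and basal 2, and basal 3 with Dox 2 and Dox 3. PIK3R1, a regulatory subunit of PI3-kinase, had 8.76, 9.34 and 8.43 in the Dox arrays and 8.60, 7.20 and 9.48 in the basal arrays (0.98 ± 0.14, adjusted p = 5.21e-04). IRS1, the adaptor closest to IRS2, had 8.40, 7.98 and 7.38 in the Dox arrays and 8.53, 7.87 and 8.0 in the basal arrays (-0.52 ± 0.13, adjusted p = 0.0291). GRB10, an adaptor that dampens receptor signalling, differed by -0.73 ± 0.14 (adjusted p = 0.00569), and Dox 3 was its lowest array at 5.42. By label PIK3R1, IRS1 and GRB10 differed by 0.41 ± 0.55, -0.22 ± 0.29 and -0.31 ± 0.51. For all of them the labels overlapped also among the arrays kept. Dox 3 lay below basal 1 for PIK3R1, and Dox 2 above basal 2 for IRS1 and GRB10. In the group of carriers and proteases 2 of 12 (16.7%) were higher, where 3.16% of all genes were. They were IGFBPL1, a gene related to the binding proteins (0.97 ± 0.14, adjusted p = 6.53e-04, limma), and HTRA1, a secreted protease (0.42 ± 0.11, adjusted p = 0.0412). By label IGFBPL1 and HTRA1 differed by 0.45 ± 0.38 and 0.16 ± 0.19. PAPPA, IGFALS and IGFBP1 were not called.

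Likeness to 3 of the genes was measured as Pearson's r over the 6 arrays, among 1011 or 1012 genes with an SD of at least 0.5. The arrays fall into near-identical pairs, so r is a description. The genes most like IGFBP7 were SHOC1 (0.996), TSPAN12 (0.992), SLC16A9 (0.992), TMEM163 (0.989) and PHLDA1 (0.988), and 44 of 1011 genes were above 0.95. SHOC1 had 8.30, 6.91 and 6.29 in the Dox arrays and 8.40, 8.55 and 6.88 in the basal arrays. Those most like IGF2 were AKT1S1 (0.991), TRIM28 (0.990), CYFIP2 (0.988), GHDC (0.987) and HSPB1 (0.986), with 54 of 1012 genes above 0.95. TRIM28, a co-repressor that keeps imprinted methylation, had 9.59, 9.67 and 10.97 in the Dox arrays and 9.69, 10.62 and 9.66 in the basal arrays, high in Dox 3 and basal 2 as IGF2 was. The brightest IGFBP5 set had an SD of 0.08 over the arrays, its nearest gene was AADAC (0.775), then SNTG2, LINC00184, PEX11A and PRSS23, and 0 genes reached 0.95.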

How the data were processed

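Total RNA of 6 H295R/TR SF-1 cultures was measured on Affymetrix HG-U133 Plus 2.0 arrays, with labelling by the 3' IVT method. The deposited values are on the log2 scale, 1 per probe set and array. Per the submitters' processing notes the authors used GCRMA (background by probe sequence, then a summary per probe set), whose version is not given in the sources used here. The study's methods call the 3 arrays of a condition biological replicates and name no pairing. Whether the arrays were normalized together is not given in the sources used here. Array medians lay between 5.56 and 5.60, and no further scaling or filter was applied. The number of arrays limits the precision.

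Groups followed the labels. Genes were named from the platform annotation: of 54613 probe sets 41091 had 1 symbol, 1801 several and 11721 none. All 54613 were fitted with limma 3.58.1 (lmFit, eBayes with a mean-variance trend, R 4.3.3), Dox minus basal, two-sided, with Benjamini-Hochberg adjustment over all and a threshold of 0.05. The 4-array comparison used the array set as a block and had 1 residual degree of freedom, so its errors come almost wholly from the other probe sets. The code was tested on simulated data. Plots were made in Python 3.11.15 (matplotlib 3.10.9).

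The genes, the pathway lists, the arrays left out and the block were chosen with earlier results of these data known, so p-values of the 4-array comparison are not independent evidence. The text names every gene by its brightest probe set (highest mean over the 6 arrays), any called set, called pathway genes (up to 6 a group, smallest adjusted p) and, for IGFBP7, IGFBP5 and IGF2, the 5 genes of highest Pearson r. Alternatives were leaving out arrays, other blocks, 1 probe set per gene, a filter at the median probe set, quantile normalization and no variance trend. Promoters and microRNAs were taken from RefSeq (GRCh38.p14).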

Additional observations from a re-analysis of the deposited data

How the results depend on the processing

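In the comparison of all 6 arrays, 0 probe sets and 0 of the IGF axis probe sets were called under every alternative run (301 to 650 probe sets at an unadjusted p under 0.05 in limma when an array was left out, against 373 with all arrays), so its directions are of uncalled values. Leaving out each array in turn moved them over these ranges: NR5A1 -0.14 to 0.29, IGF2 202409_at -0.20 to 0.25, H19 224646_x_at -0.10 to 0.0051, IGF1R 225330_at -0.059 to 0.34, IGFBP2 -0.30 to 0.063, IGFBP3 210095_s_at -1.17 to 0.36, IGFBP4 -0.014 to 0.16 and IGFBP5 211959_at -0.61 to 0.19. IGFBP7 201163_s_at stayed below 0 (-1.23 to -0.24), as did IRS2 209185_s_at (-0.47 to -0.04).

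In the 4-array comparison, 2269 probe sets and 8 of the IGF axis sets were called. Without the block it was 0 and 0 (1580 at an unadjusted p under 0.05), with the label style of the titles as block 0 and 0 (1901), and without basal 1 and Dox 2 in place of basal 3 and Dox 1 also 0 and 0 (518). IGFBP7 201163_s_at was -1.71 without the block (adjusted p = 0.371). The style block sets basal 1 apart and leaves basal 2 as the only basal array; under it IGF2 202409_at turned to -0.079 and H19 224646_x_at to 0.075, IGFBP3 shrank to -0.43 (210095_s_at) and -0.41 (212143_s_at) and IGFBP5 211959_at to -0.66, and IGF1R 225330_at grew to 0.65. Leaving out basal 1 and Dox 2 turned the signs, with or without a block, for NR5A1 (-0.13), IRS2 (0.017 and 0.072), IGFBP2 (0.091), IGFBP3 (0.14 and 0.068), IGFBP5 203425_s_at (-0.013) and IGFBP5 211959_at (0.53). With 1 probe set per gene, 1383 of 19775 genes and 4 of the 8 IGF axis genes with a set of their own were called. With only probe sets above the median probe set, 2741 of 27306 probe sets and 7 of 17 IGF axis sets were called. NR5A1 kept its difference of 0.43 and passed the threshold when only probe sets above the median were tested (adjusted p = 0.0491). Quantile normalization left 8 IGF axis sets called, with 2440 of all 54613 probe sets called, and no variance trend 7, with 1764. Leaving out 1 of these 4 arrays leaves 1 pair, a value with no test. The sign then depended on the pair for IGF2 202409_at (-0.0030 to 0.29), H19 224646_x_at (-0.12 to 0.12), IGF1R 225330_at (-0.14 to 0.64), IGFBP4 (-0.0030 to 0.24) and IGFBP5 203425_s_at (-0.016 to 0.24). It was the same in both pairs, at sizes over 1.5 times apart, for IGFBP6 (-0.62 to -0.15), IGFBP3 212143_s_at (-1.29 to -0.61), IRS2 209184_s_at (-0.86 to -0.57), IGFBP5 211959_at (-1.63 to -0.40) and IGFBP7 201162_at (-2.06 to -1.25). NR5A1 lay between 0.37 and 0.49, and IGFBP7 201163_s_at between -2.03 and -1.40.

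No paired analysis was possible because the running numbers of the sample titles are not shared between the labelled groups, so the labels pair no samples. The block of the 4-array comparison does set the arrays in pairs, but by the spread of their signals and not by any label, and all 8 calls rest on it. Unless stated above, the cause of a change was not tested. Sets below the array median, such as IGFBP4 and 5 of the IGFBP5 sets on some or all arrays, are limited by their low signal.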

Other observations

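Of 15 neighbours of IGF2 and H19 in the 11p15 region that were measured, 1 (6.67%) was lower without basal 3 and Dox 1 and 0 higher, where 3.27% of all genes were lower and 3.16% higher. TNNI2, a troponin gene, had 8.21, 7.41 and 8.66 in the Dox arrays and 8.28, 9.53 and 7.29 in the basal arrays (206393_at), a difference of -0.86 ± 0.12 (adjusted p = 4.87e-04, limma). Basal 2 was its highest array and basal 3 its lowest, and Dox 3 lay above basal 1. By label TNNI2 differed by -0.27 ± 0.57. CDKN1C, an imprinted inhibitor of the cell cycle, had 5.79, 5.89 and 5.99 in the Dox arrays and 5.57, 5.49 and 5.43 in the basal arrays (213348_at). Its labelled groups did not overlap, as was so for 3.81% of all probe sets, and the difference of 0.39 ± 0.11 by label and 0.41 ± 0.14 without basal 3 and Dox 1 did not pass the test (adjusted p = 1.0 and 0.157). It was named after its values were seen.

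Of 10 other imprinted growth genes measured, 1 was higher without basal 3 and Dox 1, where 3.16% of all genes were, and a single gene in either list is no result about the list. PEG3, a paternally expressed zinc finger gene, had 12.48, 12.77 and 12.52 in the Dox arrays and 12.54, 11.83 and 12.85 in the basal arrays, a difference of 0.47 ± 0.10 (adjusted p = 0.0135, limma), with basal 2 lowest. By label PEG3 differed by 0.19 ± 0.25, and its signal in Dox 3 lay below that in basal 1. DLK1, also an imprinted growth gene of this list, differed by 0.03 ± 0.06 without basal 3 and Dox 1. Its signals lay between 13.98 and 14.03 on all arrays. Of the 8 factors known to act at the IGF2 locus, 0 were called, among them CTCF (0.0081 ± 0.11), which binds the control region between IGF2 and H19. TRIM28 differed by 0.17 ± 0.11.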
